A study of Mus musculus with 3 samples.

Results

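The genes described here are 30 genes of cholesterol synthesis and sterol control, out of 32594 genes counted in whole mouse prostate. They were chosen by symbol, for their place in the pathway and not for their measured values, and all 30 were found. The set holds 19 enzymes of the route from acetyl-CoA to cholesterol, 5 genes of sterol sensing and 6 genes of sterol transport, export and receptor turnover. Cells were captured in droplets with the 10x Genomics system and their RNA was sequenced in 3 libraries of C57BL6 mice of 12 to 15 weeks. The knockout library came from Srd5a2 knockout tissue, and 2 libraries, heterozygote 1 and heterozygote 2, came from Srd5a2 heterozygous tissue. There was no wild-type group, so the animals set against the knockout also carried 1 disrupted copy of Srd5a2, the gene of the enzyme that turns testosterone into dihydrotestosterone. The labels list no drug treatment of the animals. Before capture, each prostate spent 2 h at 37 °C in collagenase solution that held dihydrotestosterone and a rock inhibitor, and all levels were read after that exposure. The sources used here do not give the number of animals behind each library or the part of Srd5a2 that was disrupted.

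Cholesterol is made in the cytosol and the endoplasmic reticulum. Acetyl-CoA is joined to HMG-CoA and reduced to mevalonate, mevalonate is turned into isoprenoid diphosphates, these are condensed to squalene, and squalene is closed to lanosterol and trimmed to cholesterol. When membrane sterol is low, the escort protein SCAP carries the transcription factor SREBP-2 to the Golgi, where it is cut and released to raise transcription of the pathway's genes. INSIG proteins hold SCAP back when sterol is plentiful. Oxysterols act through LXR receptors, which raise the exporters ABCA1 and ABCG1 and the ubiquitin ligase encoded by Mylip. In human prostate cancer cell lines androgens are known to raise many genes of the synthesis route.

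Promoter sequence was read for 24 of the 30 genes from RefSeq on build GRCm38.p6, as the 250 bases before each annotated start. Fdps, Fdft1, Sqle, Stard4, Npc1 and Abcg1 were not analysed in this way. Both strands were searched for CCAAT, the box bound by NF-Y, a common partner of SREBP, and for TCACNCCA, the core of the sterol regulatory element. By GENCODE, 11 of these genes have their start inside a window, Idi1, Cyp51 and Msmo1 among them, so part of such a window is transcribed by that annotation, and 10 genes have a window that holds no annotated exon. The promoters of 4 of those 10 follow with every match in capitals, where ATTGG is CCAAT read on the other strand and no match overlapped another. Hmgcs1 holds both motifs, Pmvk and Sc5d belong to the genes that passed a test by genotype in the comparisons that follow, and Insig2 is a gene of sterol sensing whose luminal counts hardly differed.
Hmgcs1 (chr13:119690101-119690350, plus strand): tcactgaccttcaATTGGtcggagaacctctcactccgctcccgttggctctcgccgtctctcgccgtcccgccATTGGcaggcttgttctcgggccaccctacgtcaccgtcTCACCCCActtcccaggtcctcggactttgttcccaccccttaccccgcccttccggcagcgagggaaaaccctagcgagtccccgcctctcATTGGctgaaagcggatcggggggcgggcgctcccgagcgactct
Pmvk (chr3:89454291-89454540, plus strand): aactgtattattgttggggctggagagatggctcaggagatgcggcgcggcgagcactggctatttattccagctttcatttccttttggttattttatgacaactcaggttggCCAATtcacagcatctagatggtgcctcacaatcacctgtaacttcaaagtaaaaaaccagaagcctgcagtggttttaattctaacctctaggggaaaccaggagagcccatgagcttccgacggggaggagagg
Sc5d (chr9:42264301-42264550, minus strand): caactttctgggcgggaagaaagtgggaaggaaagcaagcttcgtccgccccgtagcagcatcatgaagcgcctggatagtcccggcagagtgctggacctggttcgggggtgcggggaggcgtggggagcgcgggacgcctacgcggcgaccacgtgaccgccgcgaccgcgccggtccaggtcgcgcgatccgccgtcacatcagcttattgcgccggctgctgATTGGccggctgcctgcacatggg
Insig2 (chr1:121332590-121332839, minus strand): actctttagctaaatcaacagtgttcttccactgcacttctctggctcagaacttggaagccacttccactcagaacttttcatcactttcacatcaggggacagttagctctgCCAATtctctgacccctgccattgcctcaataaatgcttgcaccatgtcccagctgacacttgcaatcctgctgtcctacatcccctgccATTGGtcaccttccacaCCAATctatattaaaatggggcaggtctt
A gene with several annotated starts was counted if any of its windows held a match. At least 1 CCAAT box stood in 20 of the 24 genes, 83.3%, against 37.5% of all 27025 genes with a promoter entry. The 4 genes with none were Acat2, Scap, Nr1h2 and Abca1. The TCACNCCA core stood in 3 of the 24 genes, Hmgcs1, Msmo1 and Srebf2, against 4.20% of all genes. The Insig2 window shown above holds 3 CCAAT boxes, while that of Pmvk, which was lower in knockout basal cells, holds 1. Both genes have further annotated starts, and the windows before those hold neither motif. The motifs were chosen for what is known of this pathway with the counts already seen, and a match describes letters only.

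After filtering, 9131 knockout cells, 4529 cells of heterozygote 1 and 9665 cells of heterozygote 2 were kept. Their median depths were 4432, 6966 and 4954 UMIs, where a UMI is a molecular tag that counts 1 captured transcript. Srd5a2 itself had 12 UMIs in the knockout cells, against 135 and 156 in the cells of heterozygotes 1 and 2. Heterozygote 1 stood apart in depth, since its shallowest barcode held 2466 UMIs, against 586 in the knockout and 500 in heterozygote 2. The pairs of libraries shared 7, 26 and 9 cell barcodes. Cells fell into 32 clusters, named by marker genes, and the sterol genes were kept out of the genes that formed them. Secretory luminal cells (1401, 2070 and 3766 in the knockout, heterozygote 1 and heterozygote 2) make the prostatic fluid, proximal luminal cells (150, 340 and 676) line the ducts near the urethra and are marked by Psca and Krt4, and basal cells (1865, 724 and 1611) are marked by Krt5, Krt14 and Trp63. RNA of seminal vesicle secretory genes was found outside their own cells, where it made up 3.7% of the UMIs of knockout luminal cells, against 0.38% and 1.16% in heterozygotes 1 and 2. In basal cells it made up 5.99% in the knockout, against 0.967% and 1.36%. Levels are given as CPM, the UMIs of a gene scaled to a common total in each library and class. In the description of cell types below, those totals leave out 70 genes found as free RNA.

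The whole route was read in every epithelial class. Summed over the 19 enzymes, the level was 682 ± 149 CPM in secretory luminal cells, 730 ± 95.4 in proximal luminal cells, 742 ± 192 in basal cells, 653 ± 79.9 in ionocytes (rare epithelial cells marked by Foxi1) and 664 ± 135 in seminal vesicle-like cells (SD over 3 libraries). These 5 classes overlapped. Seminal vesicle secretory genes made up 36%, 42.5% and 41.9% of ionocyte UMIs in the knockout, heterozygote 1 and heterozygote 2. What such RNA adds to the sterol gene levels of ionocytes was not tested. The sum was lower in the stroma and in macrophages, with 438 ± 55.9 CPM in smooth muscle, 390 ± 15.5 in fibroblasts, 320 ± 34.0 in endothelial cells and 283 ± 10.9 in macrophages. The lowest secretory luminal library, the knockout with 516 CPM, lay above the highest smooth muscle library, with 494 CPM. Smooth muscle and fibroblasts overlapped, and macrophages rested on 119, 30 and 88 cells in the knockout, heterozygote 1 and heterozygote 2. T or NK cells, with 234, 13 and 71 cells, had 561 ± 40.8 CPM and overlapped the secretory luminal and basal values.

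**Figure D1:**
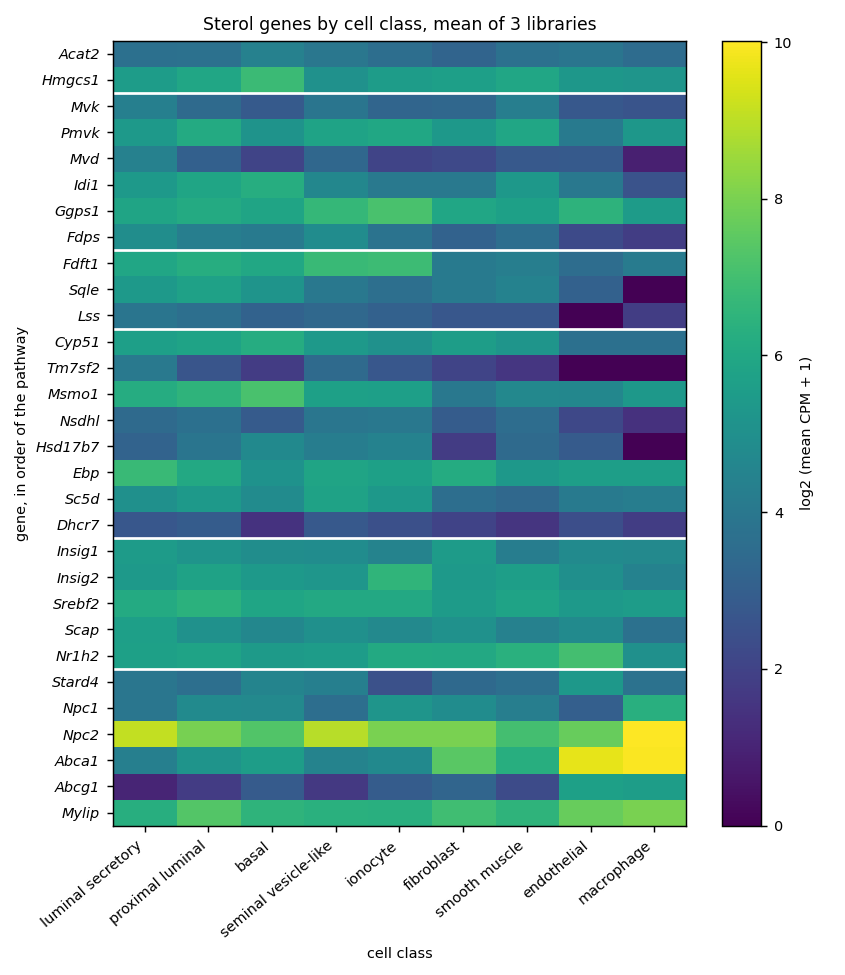
Mean level of each of the 30 genes (rows, in order of the pathway, with lines between its steps) in 9 cell classes (columns), as log2 of mean CPM plus 1 over the 3 libraries. The enzymes are read mainly in the epithelial columns on the left, while Npc2, Abca1 and Abcg1 are brightest on the right, with macrophage means of 1035, 1006 and 46.4 CPM.

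Secretory luminal and basal cells differed at several steps of the route, in both directions. With the library as a block, 19 of the 30 genes passed edgeR's quasi-likelihood test with Benjamini-Hochberg adjustment, 10 higher and 9 lower in secretory luminal cells. Of all 13662 genes tested 64.9% passed, a similar share, so the count by itself does not set these genes apart. At the entry of the route basal cells were the higher ones. Hmgcs1, the synthase that makes HMG-CoA, had 45.7 ± 13.2 CPM in secretory luminal cells, against 113 ± 16.8 CPM in basal cells (log2 difference -1.36 ± 0.22 SE). Its basal level lay above that of every other class in every library. In the middle of the route the kinase Mvk was 1.56 ± 0.25 and the decarboxylase Mvd 2.57 ± 0.40 higher in secretory luminal cells on the log2 scale, with Mvd at 20.3 ± 2.72 CPM, against 3.18 ± 2.58 CPM in basal cells. Idi1, in the same stretch, was lower in secretory luminal cells (-0.90 ± 0.34, adjusted p = 0.0242 by edgeR). Among the late steps, the reductase Tm7sf2 (2.67 ± 0.37), the isomerase Ebp (1.65 ± 0.16) and the last reductase Dhcr7 (1.54 ± 0.39) were higher in secretory luminal cells. Hsd17b7 (-1.72 ± 0.24), Msmo1 (-0.97 ± 0.24) and Cyp51 (-0.60 ± 0.26) were lower there. Ebp had 109 ± 18.9 CPM in secretory luminal cells, against 33.4 ± 4.97 CPM in basal cells, and its lowest secretory luminal library lay above the highest library of any other class named here.

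Among the genes of sensing, the SREBP escort gene Scap was higher in secretory luminal than in basal cells (log2 difference 0.93 ± 0.18), and Srebf2 itself did not pass (0.18 ± 0.14, adjusted p = 0.254 by edgeR). Npc2, which hands cholesterol out of the lysosome, had 546 ± 104 CPM in secretory luminal cells, against 155 ± 34.8 CPM in basal cells (1.78 ± 0.22). The exporters ran the other way. Abca1 had 18.8 ± 2.91 CPM in secretory luminal cells, against 47.0 ± 7.46 CPM in basal cells (-1.36 ± 0.18), and Abcg1 had 1.07 ± 0.298 CPM, against 6.40 ± 4.64 CPM (-2.60 ± 0.45). Insig2, which anchors SCAP, was highest in ionocytes, with 92.9 ± 20.4 CPM, and every ionocyte library lay above every library of proximal luminal cells, the next class by mean, at 53.0 ± 2.67 CPM. The oxysterol receptor gene Nr1h2 was highest in endothelial cells, at 128 ± 22.6 CPM.

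Fibroblasts and macrophages held less of the synthesis route and more of the export genes than secretory luminal cells. In fibroblasts 3 of the 30 genes were higher and 15 lower than in secretory luminal cells by edgeR's quasi-likelihood test. Of all genes tested 57.9% passed, a similar share. The 3 higher members were Abca1 (log2 difference 3.07 ± 0.20), Abcg1 (2.90 ± 0.66) and Mylip (0.66 ± 0.21), which are all known targets of LXR. In macrophages, which fell under the minimum of 50 cells in heterozygote 1 and were fitted with a minimum of 25, 5 genes were higher and 11 lower than in secretory luminal cells, where 45.6% of all genes tested passed. Abca1 reached 1006 ± 228 CPM in macrophages, against 18.8 ± 2.91 CPM in secretory luminal cells (5.92 ± 0.23), and Npc1, the lysosomal partner of Npc2, reached 78.0 ± 9.94 CPM, against 14.2 ± 2.87 CPM (2.65 ± 0.35). Npc2, Abcg1 and Mylip were the others that were higher. Sqle, Tm7sf2 and Hsd17b7 had no UMI in the macrophages of any library, where the limit that a count of 0 allows over all 3 libraries is 4.35 CPM. Against that limit, Sqle had 42.3 ± 13.1 CPM in secretory luminal cells.

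The comparison by genotype asks what changes in prostate cells when Srd5a2 is lost. It has 1 knockout library and 2 heterozygote libraries, so the spread behind the p-values comes from the heterozygote libraries. edgeR moderates that spread toward a trend over all genes, so a member's p is not set by its own heterozygote values alone. No rearrangement of 3 libraries can give a p below 0.33. CPM here are scaled by TMM over all genes. In luminal cells, secretory and proximal together, the isoprenoid isomerase Idi1 and the sterol carrier Stard4 were lower in the knockout, and no member was higher. These 2 of the 30 genes, 6.67%, passed edgeR's quasi-likelihood test, against 1.85% of the 16816 genes tested in either direction. The median log2 difference was -0.48 over the 30 genes and -0.03 over all genes tested. The knockout lay below both heterozygotes for 22 of the 30 genes, 73.3%, against 35.4% of all genes tested. It lay above both for 2 of the 30, against 32.3% of all genes tested.

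Idi1 had 16.04 CPM in the knockout luminal cells, against 38.8 and 27.9 CPM in heterozygotes 1 and 2. The groups did not overlap, and heterozygote 2 lay nearer to the knockout than heterozygote 1 did (log2 difference -1.05 ± 0.30 SE, adjusted p = 0.0332 by edgeR). Stard4, whose product carries sterol through the cytosol, had 4.51 CPM in the knockout, against 11.4 and 11.3 CPM in heterozygotes 1 and 2. Here the heterozygotes lay close together and the knockout apart (-1.33 ± 0.34, adjusted p = 0.00865 by edgeR). Fdps, the synthase that makes farnesyl diphosphate in the step after Idi1, had 10.9 CPM in the knockout, against 25.5 and 18.2 CPM, and it narrowly missed the threshold (-0.99 ± 0.31, adjusted p = 0.0641 by edgeR).

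Of the first steps, the thiolase Acat2 had 5.52 CPM in the knockout luminal cells, against 10.46 and 8.07 CPM in the heterozygotes, and Hmgcs1 had 22.9 CPM, against 33.6 and 35.8 CPM. The squalene synthase gene Fdft1 had 28.7 CPM in the knockout, against 47.5 and 45.0 CPM. The squalene epoxidase gene Sqle, a slow step of the route, had 20.02 CPM in the knockout, against 34.3 and 30.8 CPM. In all 4 genes the knockout lay below both heterozygotes, with log2 differences between -0.60 and -0.74 that did not pass the adjusted test (adjusted p between 0.351 and 0.544 by edgeR). Insig1, itself a target of SREBP-2, had 18.3 CPM in the knockout, against 30.01 and 36.3 CPM (-0.86 ± 0.30, adjusted p = 0.140 by edgeR). These 8 genes were the only members with an unadjusted p under 0.05, and all 8 were lower in the knockout. Of all 16816 genes tested, 1437 had such a p. Srebf2 (-0.36 ± 0.29) and Scap (-0.44 ± 0.29) lay below both heterozygotes without passing. Not every gene of the route followed: Ggps1, which makes geranylgeranyl diphosphate on a side branch, had 38.9 CPM in the knockout, against 38.3 and 37.7 CPM, Insig2 had 30.01 CPM, against 27.1 and 27.4 CPM, and Nr1h2 had 32.8 CPM, against 32.8 and 35.5 CPM.

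**Figure D2:**
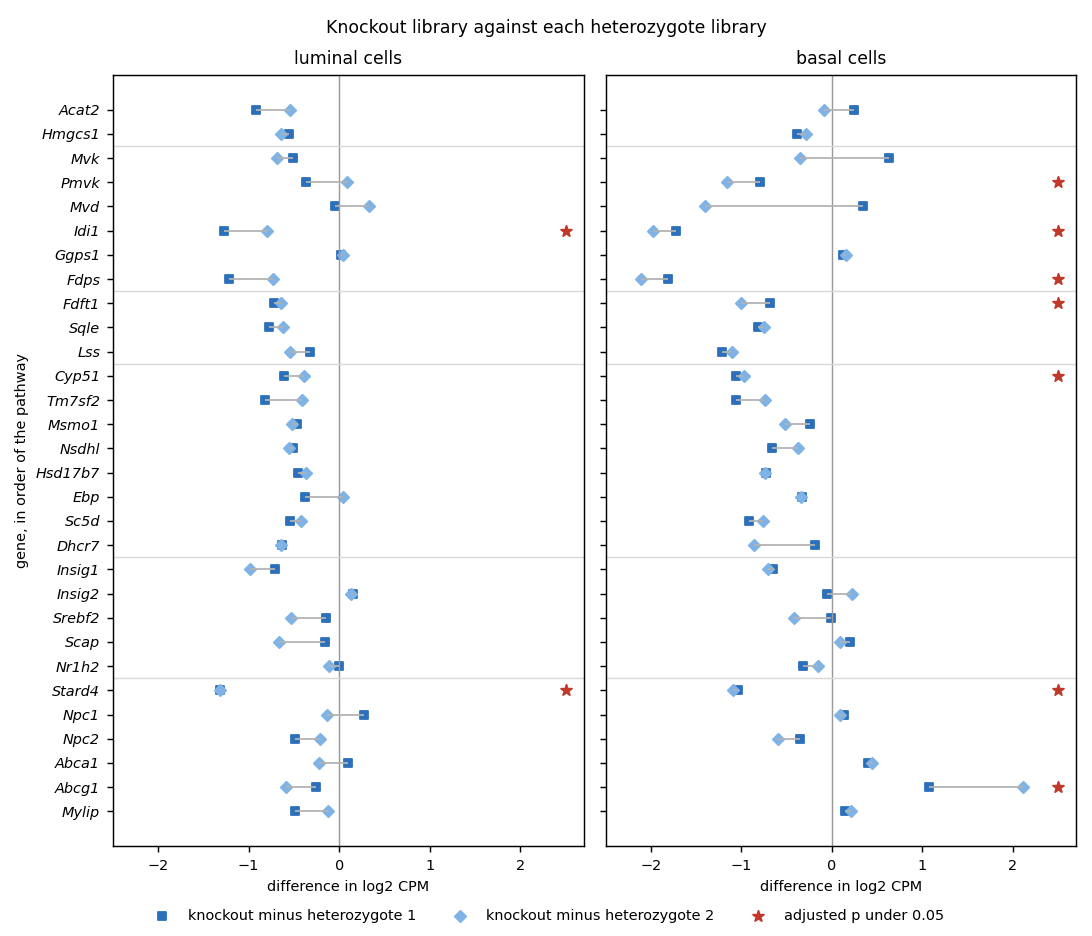
Difference in log2 CPM between the knockout and heterozygote 1 (squares) and heterozygote 2 (diamonds) for each of the 30 genes in order of the pathway, in luminal cells (left) and basal cells (right). Stars at the right edge mark an adjusted p under 0.05 by edgeR and carry no value of their own; most symbols lie left of 0, with medians of -0.48 in luminal and -0.51 in basal cells, and Ggps1 lies near 0 in both.

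The luminal calls were few and depended on how the counts were handled. Neither gene passed in DESeq2 (Idi1 adjusted p = 0.272, Stard4 adjusted p = 0.158) or after free RNA was subtracted, where Idi1 was -0.97 (adjusted p = 0.582 by edgeR) and Stard4 -1.48 (adjusted p = 0.201 by edgeR). In a tissue sample, less RNA per cell and a different mix of cells within a class cannot be told apart by summed counts, and the luminal clusters were drawn unequally from the libraries.

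Within the secretory luminal cells alone, 3 of the 30 genes were lower in the knockout and none higher, where 2.18% of 16225 genes passed edgeR's test. Idi1 had 12.8 CPM in the knockout, against 39.4 and 27.8 CPM in heterozygotes 1 and 2 (log2 difference -1.39 ± 0.33, adjusted p = 0.00192 by edgeR). Stard4 had 4.19 CPM, against 12.3 and 11.3 CPM (-1.49 ± 0.34, adjusted p = 0.00118 by edgeR). Fdps had 10.8 CPM, against 27.4 and 18.2 CPM (-1.07 ± 0.32, adjusted p = 0.0386 by edgeR). In all 3 genes the knockout lay below both heterozygotes.

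Of the 6 secretory luminal clusters, 5 were tested one by one, and cluster 16, with 42 knockout cells against 257 and 303, was left out for too few cells. The number of members that passed ran between 0 and 7. Cluster 3, secretory cells led by C1s2 and Pnliprp1, had 7 of 29 members tested lower in the knockout, where 2.49% of all genes tested passed edgeR's test. They spanned the route from mevalonate to squalene and its control: Mvk, Idi1, Fdps, Fdft1, Sqle, Insig1 and Stard4, with log2 differences between -2.43 ± 0.60 (Stard4) and -1.02 ± 0.28 (Fdft1). Idi1 had 19.1 CPM in the knockout cells of cluster 3, against 58.4 and 45.9 CPM in heterozygotes 1 and 2. Fdft1 had 34.7 CPM there, against 81.0 and 61.9 CPM. In cluster 2 only Idi1 passed, at 9.05 CPM in the knockout, against 23.2 and 25.4 CPM (1.45% of all genes passed). In cluster 1 only Stard4 passed, at 4.21 CPM, against 15.0 and 6.79 CPM (3.09% of all genes passed). In CPM, the heterozygotes differed there from each other by more than heterozygote 2 differed from the knockout. None of the members tested passed in cluster 7 (0.312% of all genes passed) or in cluster 14 (0.788%). In cluster 7, 1 of 25 members and 312 of 7684 genes tested had an unadjusted p under 0.05. In cluster 14, 3 of 28 members and 925 of 11038 genes did. In clusters 2 and 3 alike, 23 of 29 members lay below both heterozygotes, against 34.5% and 35.4% of all genes tested. The members' median was -0.43 in each of these 2 clusters, and -0.80 over the 25 members tested in cluster 7. Whether these clusters differ from one another in the size of the change was not tested.

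**Figure D3:**
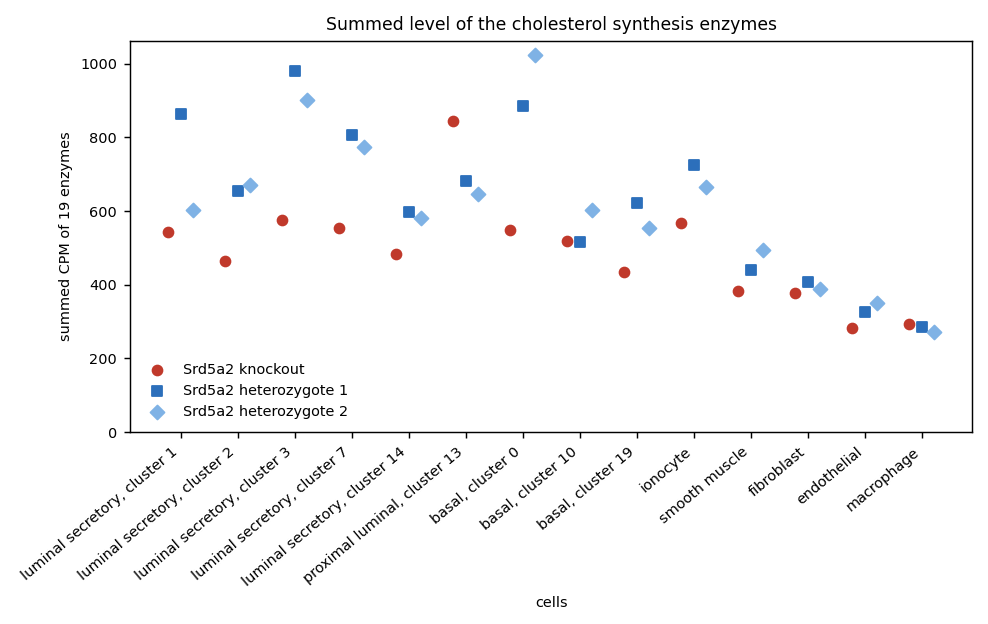
Summed CPM of the 19 synthesis enzymes in each library, for single luminal and basal clusters and for other classes, with the knockout left of heterozygotes 1 and 2. The knockout is lowest in the 5 secretory luminal clusters with at least 50 cells in each library. In cluster 3 it has 576 CPM, against 981 and 902 CPM. In cluster 1 it has 543 CPM, against 863 and 604 CPM, where heterozygote 2 lies nearer to the knockout than to heterozygote 1. It is also lowest in basal clusters 0 and 19, ionocytes, smooth muscle, fibroblasts and endothelial cells. It lies between the heterozygotes in basal cluster 10, and is highest in proximal luminal cluster 13 and in macrophages (293 CPM, against 286 and 271 CPM).

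Proximal luminal cells stood apart from the secretory luminal clusters, but they were not alone in lacking the drop. The members' median was 0.01 in basal cluster 10 (19 members tested), -0.01 in fibroblasts (13) and 0.25 in macrophages (10). Summed over the 19 enzymes, proximal luminal cells had 840 CPM in the knockout, against 684 and 666 CPM in heterozygotes 1 and 2. Secretory luminal cells had 516 CPM in the knockout, against 802 and 729 CPM. No member passed edgeR's test in the proximal class, where 0.0447% of 11180 genes passed, nor in cluster 13, which held 148 of the 150 knockout cells of the class, where 0.241% passed. The median over the members was 0.01 in the proximal class. There 504 of the 11180 genes had an unadjusted p under 0.05, and so did 5 of 29 members, all higher in the knockout. They were Idi1, Cyp51, the methyl oxidase gene Msmo1, the desaturase gene Sc5d and Npc1. Idi1 had 66.9 CPM in knockout proximal cells, against 37.4 and 24.8 CPM, on 84, 107 and 120 UMIs. Sc5d had 48.6 CPM, against 19.6 and 21.7 CPM.

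The difference of the knockout effect itself was then tested, an alternative added with the data in view. Secretory luminal minus cluster 13, 3 members passed edgeR's test, all with a lower effect in secretory cells, where 0.149% of 15448 genes passed. The difference in effect was -2.37 ± 0.26 for Idi1 (adjusted p = 0.00336), -1.58 ± 0.22 for Msmo1 (adjusted p = 0.0125) and -1.88 ± 0.30 for Sc5d (adjusted p = 0.0384), all by edgeR on the log2 scale. With the whole proximal class in place of cluster 13, no gene passed (0.0% of 15644 genes), 8 members had an unadjusted p under 0.05, and Idi1 was -2.40 ± 0.37 (adjusted p = 0.338 by edgeR). The proximal class also holds cluster 20, with 350 of its 368 cells from heterozygote 2. DESeq2 on the sums of the whole proximal class called none of the members, with 5 at an unadjusted p under 0.05. The share of all genes at that unadjusted p was not counted for these differences.

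In basal cells Idi1 and Fdps were lower in the knockout by the widest margins, and 4 further members were lower in the knockout. Of the 30 genes 7 passed edgeR's test, 6 lower and 1 higher in the knockout, 23.3%, against 3.35% of 12267 genes tested in either direction. The median over the members was -0.51 and over all genes -0.01. The knockout lay below both heterozygotes for 20 of the 30 genes, 66.7%, against 33.6% of all genes tested, and above both for 6. The 5 lower enzymes ran from mevalonate to the first demethylation of lanosterol, the other lower gene was the sterol carrier Stard4, and the higher one was an exporter.

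In the isoprenoid steps the kinase gene Pmvk had 15.7 CPM in knockout basal cells, against 27.6 and 35.5 CPM in heterozygotes 1 and 2 (log2 difference -1.02 ± 0.26, adjusted p = 0.0171 by edgeR). Idi1 had 20.2 CPM, against 67.7 and 80.6 CPM (-1.88 ± 0.25, adjusted p = 1.55e-06 by edgeR). Fdps had 3.82 CPM, against 14.3 and 17.7 CPM (-2.08 ± 0.36, adjusted p = 0.000141 by edgeR). In all 3 the knockout lay well below both heterozygotes. Fdft1, at the start of the squalene steps, had 31.0 CPM in the knockout, against 50.004 and 62.4 CPM (-0.87 ± 0.24, adjusted p = 0.0294 by edgeR). Cyp51, the demethylase that acts first on lanosterol, had 32.7 CPM, against 68.4 and 64.7 CPM (-1.02 ± 0.23, adjusted p = 0.00574 by edgeR). Stard4 had 9.48 CPM, against 19.9 and 20.7 CPM (-1.10 ± 0.29, adjusted p = 0.0202 by edgeR). Again no heterozygote value reached down to the knockout's. Hmgcs1, which basal cells held at the highest level of any class, had 73.0 CPM in the knockout, against 95.6 and 89.2 CPM, and did not pass (-0.34 ± 0.23, adjusted p = 0.651 by edgeR).

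**Figure D4:**
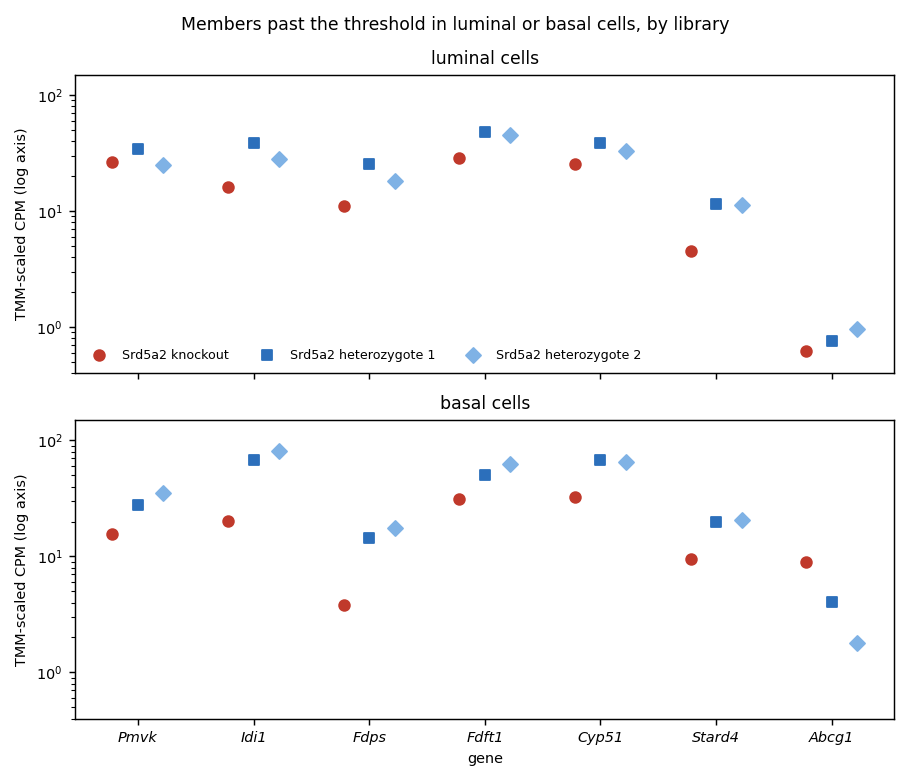
TMM-scaled CPM (log axis) of the 7 members that passed the threshold in luminal or basal cells, by library, with the knockout left of heterozygotes 1 and 2. In basal cells (lower panel) the knockout is the lowest library for 6 genes, with Fdps at 3.82 CPM against 14.3 and 17.7 CPM, and the highest for Abcg1.

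Abcg1, which exports cholesterol to lipoprotein, had 8.90 CPM in knockout basal cells, against 4.04 and 1.79 CPM in heterozygotes 1 and 2 (log2 difference 1.74 ± 0.46, adjusted p = 0.0218 by edgeR). Nearly all of its basal UMIs, 76 of 77 from the knockout, all 11 from heterozygote 1 and all 9 from heterozygote 2, lay in cluster 10. That cluster is led by Tmem171, Frmpd4 and Egfl6 and held 609 of 1865 basal cells of the knockout, against 103 of 724 and 155 of 1611 in heterozygotes 1 and 2. Within cluster 10 Abcg1 had 26.6 CPM in the knockout, against 25.6 and 15.7 CPM, and the test did not pass (0.40 ± 0.41, adjusted p = 0.772 by edgeR). Its partner exporter Abca1 had 43.1 CPM in knockout basal cells, against 32.7 and 31.6 CPM (0.43 ± 0.23, adjusted p = 0.495 by edgeR).

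Of the 6 lower genes, 5 also passed within cluster 0, the main basal cluster, led by Krt17 and Krt14. There 5 of 27 members tested were lower in the knockout and none higher, where 3.06% of all genes passed edgeR's test. Idi1 had 23.53 CPM in the knockout cells of cluster 0, against 84.1 and 103 CPM in heterozygotes 1 and 2 (log2 difference -2.00 ± 0.27, adjusted p = 2.78e-11 by edgeR). Fdps had 3.78 CPM, against 18.4 and 21.2 CPM (-2.39 ± 0.39). Pmvk, Fdft1 and Cyp51 were the other 3. No member passed in cluster 10 (0.043% of all genes passed) or in cluster 19 (1.06%). At an unadjusted p under 0.05 stood 0 of 19 members and 688 of 6970 genes in cluster 10. In cluster 19 these were 2 of 22 members and 630 of 8500 genes. In DESeq2 only Idi1 stayed past the threshold in basal cells. After free RNA was subtracted, none of the 7 passed, while the log2 differences of Idi1 (-1.90, adjusted p = 0.0682 by edgeR) and Fdps (-2.33, adjusted p = 0.108 by edgeR) were as large as before.

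In the test of whether the knockout effect differs between luminal and basal cells, none of the 30 genes passed by edgeR, where 0.431% of 16457 genes passed. Only 4 members had an unadjusted p under 0.05, DESeq2 called none, and the largest difference, Abcg1, was -2.24 ± 0.74 (adjusted p = 0.358 by edgeR). Here too the share of all genes at that unadjusted p was not counted.

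In seminal vesicle-like cells (2905, 730 and 1061 in the knockout, heterozygote 1 and heterozygote 2) none of the 30 genes passed edgeR's test, where 1.62% of 13401 genes passed, and DESeq2 called none. An unadjusted p under 0.05 was found for 1875 of the 13401 genes and for 5 of the 30 members, a similar share. These 5 members were all lower in the knockout, namely Acat2, Hmgcs1, Idi1, the sterol dehydrogenase gene Nsdhl and Insig1. Idi1 had 3.38 CPM in the knockout, against 12.8 and 5.71 CPM (log2 difference -1.43 ± 0.47, adjusted p = 0.223 by edgeR). The class was drawn unequally from the libraries, with clusters 11 and 15 almost wholly from the knockout, and only its clusters 4 and 9 had at least 50 cells in each library. In cluster 9, where 3.58% of all genes passed edgeR's test, Idi1 had 4.41 CPM in the knockout, against 27.9 and 11.2 CPM in heterozygotes 1 and 2 (log2 difference -2.16 ± 0.48, adjusted p = 0.00197 by edgeR). Stard4 had 4.96 CPM there, against 27.9 and 9.07 CPM (-1.92 ± 0.48, adjusted p = 0.00907 by edgeR). In CPM, the heterozygotes differed from each other by more than heterozygote 2 differed from the knockout in both genes. No member passed in cluster 4, where 2.28% of all genes passed. There 3 of 29 members had an unadjusted p under 0.05, against 1063 of 11641 genes tested.

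In the other classes no member passed edgeR's test, and DESeq2 called none in the 4 classes where it was run. In ionocytes 29 members were tested and 1.7% of all genes passed. Idi1 had 3.41 CPM there in the knockout, against 11.5 and 7.27 CPM (-1.37 ± 0.54, adjusted p = 0.273 by edgeR), and it was 1 of 4 members with an unadjusted p under 0.05, all lower. Of the 10873 genes tested in ionocytes, 888 had such a p. Seminal vesicle secretory genes made up 36.0% of ionocyte UMIs in the knockout, against 42.5% and 41.9% in the heterozygotes. In smooth muscle 24 members were tested, 4.58% of all genes passed, and Idi1, at 20.3 CPM in the knockout, against 42.1 and 31.8 CPM, was the only member with an unadjusted p under 0.05. Of the 9504 genes tested in smooth muscle, 1313 had such a p. In fibroblasts (13 members tested, 1.3% of all genes passed), endothelial cells (9 members, 1.13%) and macrophages (10 members, 1.65%) no member had an unadjusted p under 0.05. Among all genes tested there, 514 of 6767, 379 of 4966 and 363 of 4293 did, in that order. These classes had few cells in heterozygote 1, 64 fibroblasts and 53 endothelial cells among them, and most members had too few UMIs there to pass the filter on low counts.

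Neighbouring genes of lipid metabolism were read from a list of 33 genes of fatty acid synthesis, isoprenoid use, sterol sensing and sterol esters. In luminal cells none of the 32 tested passed edgeR's test, where 1.85% of all genes passed, and their median log2 difference was -0.13. In secretory luminal cells alone the desaturase gene Fads2 was higher in the knockout, with 2.66 CPM, against 0.645 and 0.833 CPM (2.18% of all genes passed), and in seminal vesicle-like cells it was lower, with 2.90 CPM, against 13.02 and 11.9 CPM (1.62% of all genes passed). In basal cells 2 of 32 were lower in the knockout, where 3.35% of all genes passed. They were Tmem97, a regulator of NPC1, with 7.17 CPM in the knockout, against 16.5 and 20.3 CPM (-1.37 ± 0.31, adjusted p = 0.00444 by edgeR), and the desaturase gene Scd1, with 8.44 CPM, against 18.02 and 24.8 CPM (-1.37 ± 0.30, adjusted p = 0.00311 by edgeR). Neither passed in basal cells in DESeq2 or after free RNA was subtracted. In smooth muscle 3 of 29 passed, where 4.58% of all genes passed. Soat1, which esterifies cholesterol, was higher in the knockout (25.5 CPM, against 10.2 and 8.37 CPM), while Me1 (27.1 CPM, against 64.9 and 47.7 CPM) and Scd1 (70.8 CPM, against 140 and 116 CPM) were lower.

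On the annotation, 10 of the 30 genes overlap a gene on the other strand and 4 a gene on their own strand. On the other strand, Fdft1 (chr14:63145150-63179578) overlaps Ctsb, Cyp51 (chr5:4081145-4104746) overlaps Akap9, and Ggps1 (chr13:14050659-14063488) overlaps Arid4b. On their own strand, Tm7sf2 (chr19:6062821-6068373) overlaps Vps51, Fdps overlaps Gm22935 and Gm43738, Abcg1 overlaps Gm25447, and Srebf2 overlaps Gm49502 and Mir33. For these 4 own-strand cases, UMIs from shared sequence may have been assigned to either gene, which was not tested.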

How the data were processed

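Deposited matrices give raw counts of UMIs for every gene in every barcode, and the submitters' processing notes name Cell Ranger 3.1.0 and mm10. The sources used here do not give the chemistry or the cell calling. The genotype labels set the groups; replicate numbers are names. The 30 genes, the other gene lists and several alternatives were chosen with earlier results of these data known. Full values are given for members past the threshold in any class and the 8 of smallest luminal p. Barcodes needed 500 genes or more and no more than 15% mitochondrial UMIs, which left 9983 knockout barcodes and 4718 and 10587 of the heterozygotes. The top doublet scores, at 0.8% per 1000 cells, were removed (852, 189 and 922). Libraries were clustered together on 2000 variable genes, 30 components and 15 neighbors by Leiden at resolution 1.0 (igraph 0.11.9). Left out of those genes were 70 genes of free RNA, the members and the neighbouring lipid genes. Where free RNA was subtracted, heterozygote 1 had too few shallow barcodes, so the free RNA profile of heterozygote 2 was used for it. Clusters were named from at least 3 detected markers. UMIs were summed per library and class (at least 50 cells each) and tested with edgeR 4.0.16 (filterByExpr, TMM, quasi-likelihood, 1 residual degree of freedom), Benjamini-Hochberg adjusted over all genes at 0.05. DESeq2 1.42.0 and limma 3.58.1 (voom) were alternatives. Steps were tested on simulated counts. SEs are fold changes over the root of F. Gene coordinates are from GENCODE vM21 on mm10, matched by gene ID. Deposited totals were 129015041 UMIs in the knockout and 47601747 and 100801564 UMIs in heterozygotes 1 and 2. Limits for a count of 0 cover counting error only.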

Additional observations from a re-analysis of the deposited data

Results flagged for a closer look

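For 3 genes the effect of the knockout differed between secretory luminal cells and proximal luminal cluster 13 by edgeR's quasi-likelihood test. The difference of the log2 effects, secretory minus cluster 13, was -2.37 for Idi1, -1.58 for Msmo1 and -1.88 for Sc5d. Idi1 had 12.8 CPM in knockout secretory cells, against 39.4 and 27.8 CPM in heterozygotes 1 and 2, and 69.9 CPM in knockout cells of cluster 13, against 38.1 and 28.9 CPM. Msmo1 had 34.7 CPM in knockout secretory cells, against 54.5 and 55.0 CPM, and 103 CPM in knockout cells of cluster 13, against 48.9 and 53.7 CPM. Sc5d had 14.7 CPM in knockout secretory cells, against 25.4 and 22.3 CPM, and 51.2 CPM in knockout cells of cluster 13, against 20.1 and 22.4 CPM. Each gene was below both heterozygotes in the secretory cells and above both in cluster 13. With the whole proximal class in place of cluster 13, none passed by edgeR, with adjusted p = 0.338 for Idi1 and 0.911 for Msmo1 and Sc5d, and DESeq2 on that class called none of the members. Cluster 13 held 148 cells of the knockout, against 324 and 326 cells of heterozygotes 1 and 2, and the comparison was chosen after these values had been seen.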

How the results depend on the processing

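No paired analysis was possible because the labels give 1 knockout library and replicate numbers that pair nothing. DESeq2 called 98 genes in luminal cells and none of the members, in place of 311 genes and 2 members, and it called 1 member, Idi1, in the other classes in place of 7, while 11 were called there with doublets kept, 2 of them in seminal vesicle-like cells. Subtracting free RNA left 25 luminal genes and 0 members. limma-voom called 0 members in luminal cells, and 1 was called, Stard4, with doublets kept, a stricter cell filter, Leiden resolution 0.5 or the members kept for clustering. The luminal median of the members stayed negative under all alternatives run. It moved to -0.52 with no low-count filter, -0.45 with the stricter cell filter, -0.44 without cycling cells, -0.54 in secretory clusters alone and -0.39 with 6 clusters weighted equally (24 members). Leaving out either heterozygote gave -0.53 and -0.49, as values with no test, because no residual degree of freedom is left. No result reversed its direction under an alternative run. Depth was lowest in T or NK cells, macrophages, endothelial cells and fibroblasts, and the causes of these shifts were not tested.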
